A study of Rattus norvegicus with 12 samples.

Results

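The Hsp70 and Hsp90 chaperones of the rat heart were followed in left ventricles of animals that had lived with different amounts of physical activity. The genes considered were Hspa1a, Hspa8, Hspa5, Hspa9, Hspa4, Hspa2, Hsp90aa1, Hsp90ab1 and Hsp90b1, and a probe set counted for a gene when the array's annotation gave it that gene as its only symbol. By this rule 7 of the 9 genes had 12 probe sets. The array held 31042 probe sets besides controls, of which 20826 had a single symbol and named 14217 genes. Every probe set of Hspa8 and of Hsp90aa1 carried a second symbol as well, so neither gene has a value here. Hspa1a had 1 further probe set, shared with Hspa1b, which was not used. Hspa1a and Hspa1b are near-identical copies, so a value given for Hspa1a may also hold signal from Hspa1b.

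EX rats had access to voluntary exercise throughout life. PA rats were given 2 sessions a week of activity in a large box, each of 1 h, and SED rats stayed in a standard cage. All were female Sprague-Dawley rats, 16 months old when the left ventricle was taken, and RNA of several animals was pooled for each array. Each group had 4 arrays. The design describes 12 animals a group and 4 animals an array, which would give 3 arrays, so the animals behind each array are not settled and the p-values measure the spread between pooled arrays. Values are log2 units of hybridisation signal, in which a difference of 1 is a doubling. Array signal depends on the probes, so a level is compared only between arrays and never between probe sets. The arrays measure RNA of the whole ventricle wall, in which fewer cells of a type and less RNA per cell cannot be told apart.

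Hsp70 proteins bind exposed hydrophobic stretches of unfolded proteins and release them in a cycle driven by ATP, in which J-domain proteins deliver the client and nucleotide exchange factors free it. Hsp90 proteins act later, on clients that are nearly folded, such as kinases and steroid receptors. Cells keep constitutive forms in the cytosol at all times and add inducible forms through the heat shock transcription factors, while separate members serve the endoplasmic reticulum and the mitochondria. In the heart, the inducible Hsp70 is known to rise after heat, ischaemia and bouts of exercise, and the reticulum members are induced by the unfolded protein response.

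Sequences upstream of the genes are shown because these routes are known to act through different promoter elements. The 250 bases before the annotated start were taken from RefSeq (assembly GRCr8) for 8 of the 9 genes. They were searched on both strands for the endoplasmic reticulum stress element, which is CCAAT and CCACG with any 9 bases between them, for the paired heat shock unit as GAANNTTC or TTCNNGAA, and for the longer unit made by both paired forms overlapping. Among 33469 rat promoters of this length, 0.0657% held the first, 13.5% held a paired heat shock unit and 0.663% held the longer one. The stress element was present for both reticulum genes and for none of the other 6. Hspa5 is shown with its single match and Hsp90b1 with its 2 matches, the second on the reverse strand, and Hspa2 is shown as a cytosolic member with a paired heat shock unit. Capitals mark the matches and each sequence runs 5′ to 3′ towards the start of the gene. The windows are chr3:38452766-38453015 on the plus strand, chr7:23012294-23012543 on the minus strand and chr6:100864192-100864441 on the plus strand.
Hspa5: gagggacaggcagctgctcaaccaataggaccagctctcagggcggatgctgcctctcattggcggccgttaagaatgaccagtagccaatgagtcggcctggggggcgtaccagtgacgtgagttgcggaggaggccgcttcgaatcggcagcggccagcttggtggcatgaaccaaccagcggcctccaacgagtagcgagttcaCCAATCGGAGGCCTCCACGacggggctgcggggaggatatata
Hsp90b1: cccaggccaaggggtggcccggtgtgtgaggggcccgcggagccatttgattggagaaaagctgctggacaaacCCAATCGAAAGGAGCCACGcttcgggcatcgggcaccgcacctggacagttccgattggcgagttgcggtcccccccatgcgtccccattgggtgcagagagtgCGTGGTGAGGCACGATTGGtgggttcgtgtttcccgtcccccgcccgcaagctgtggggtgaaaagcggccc
Hspa2: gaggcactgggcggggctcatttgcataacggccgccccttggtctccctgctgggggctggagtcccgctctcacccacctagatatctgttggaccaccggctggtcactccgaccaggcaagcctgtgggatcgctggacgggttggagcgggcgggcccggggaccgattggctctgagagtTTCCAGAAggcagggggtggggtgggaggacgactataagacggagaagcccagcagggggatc
In Hspa5 the match lies 43 to 25 bases before the start. In Hsp90b1 the matches lie 176 to 158 and 72 to 54 bases before it, and in Hspa2 the heat shock unit lies 64 to 57 bases before it. Hspa8 held 2 matches to the longer heat shock unit and Hspa9 held 1 paired unit. The windows of Hspa1a, Hspa4 and Hsp90ab1 held none of these letter strings, which says only that the letters are not in these windows.

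By their correlation with each other and by the GAPDH control, the arrays were alike except for SED 1. Its mean correlation with the other arrays was 0.964, against 0.987 to 0.989 for the other 11 arrays, and its GAPDH 3′ minus 5′ control difference was 1.56 log2 units, against 0.96 to 1.35. Of 12 listed cardiomyocyte markers 11 were measured, and all 11 passed the filter on low values, with means over the arrays of 10.4 to 13.2, among them Myh6, the cardiac myosin heavy chain. Markers of other cells varied between arrays. The mean of the 12 leukocyte markers, set against their mean over all arrays, ranged from -0.20 to -0.035 in EX, from -0.11 to 0.22 in PA and from -0.36 to 0.68 in SED, and that of the 6 blood markers measured from -0.55 to 0.20 in EX, from -0.20 to 0.26 in PA and from -0.91 to 1.04 in SED. The 8 atrial markers ranged from -0.42 to 0.58 in EX, from -0.025 to 0.072 in PA and from -0.20 to 0.17 in SED. Within EX they stood at 0.32 and 0.58 on EX 1 and EX 3, and at -0.39 and -0.42 on EX 2 and EX 4. Of these markers, Myl7 ran from 4.09 to 10.88 over the arrays. Without SED 1 all 12 leukocyte markers had a lower mean in EX than in SED, with a median difference of -0.325, and 9 of 12 had a lower mean in PA than in SED, with a median of -0.23. With SED 1 these were 10 of 12 at -0.14 and 5 of 12 at 0.015. The blood markers had medians of -0.27 in EX and -0.24 in PA against SED without SED 1, and of -0.098 and 0.091 with it. SED 3 stood apart from the other SED arrays in both lists. The leukocyte means were 0.062 in SED 2, 0.68 in SED 3 and -0.041 in SED 4. The blood means were -0.19, 1.04 and 0.36 in the same order. The part of these markers in the chaperone values was not tested. SED 1 was the lowest of all arrays in 6 of the 11 chaperone probe sets tested and the highest in 1. Over all tested probe sets it was lowest in 34.2% and highest in 21.1%. Differences from SED are therefore set beside their values without SED 1. The part of SED 1 in them beyond these values was not tested. Every SED array also had a narrower spread of values than every EX and PA array. The interquartile range was 3.58, 3.84, 3.86 and 3.73 log2 units on SED 1 to SED 4. It was 3.89 to 4.04 in EX and 3.93 to 4.03 in PA. Leaving out SED 1 does not remove this difference in spread, whose part in the differences from SED was not tested.

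No chaperone probe set differed between groups at an adjusted p under 0.05. The test was limma's moderated test on all 12 arrays with Benjamini-Hochberg adjustment over 18626 probe sets, the upper 60% by mean level, which took in 11 of the 12. In EX against SED 0 of 11 were called, and the share called over all tested probe sets was 0%. At an unadjusted p under 0.05 there were 1 of 11, where the share over all tested probe sets was 15.6%. In PA against SED 0 of 11 were called against 0% of all tested probe sets, and 2 of 11 at an unadjusted p under 0.05 against 15.2%. In EX against PA 0 of 11 were called against 0%, and 0 of 11 at an unadjusted p under 0.05 against 2.87%.

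**Figure D1:**
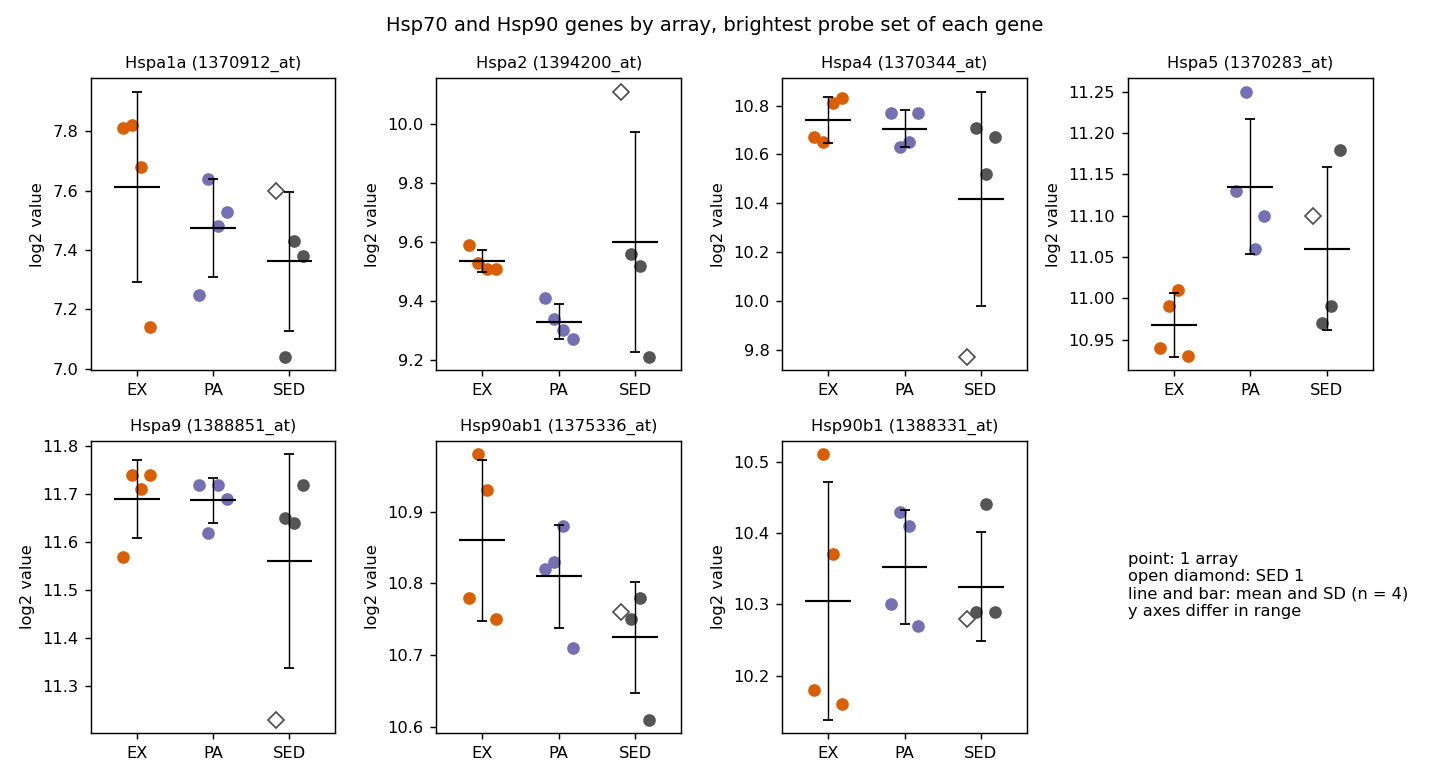
Log2 value of the brightest tested probe set of each of the 7 measured genes (y axes, which differ in range) by group (x axes). Each point is 1 array, the line and bar are the mean and SD of 4 arrays, and the open diamond is SED 1. The 4 EX arrays of Hspa5 (10.93 to 11.01) lie under the 4 PA arrays (11.06 to 11.25), and SED 1 stands far from the rest in Hspa2, Hspa4 and Hspa9.

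The inducible member was Hspa1a, the cytosolic Hsp70 that stress adds to the constitutive pool. Its probe set 1370912_at read 7.81, 7.82, 7.68 and 7.14 on the EX arrays, 7.25, 7.64, 7.48 and 7.53 on the PA arrays, and 7.60, 7.04, 7.43 and 7.38 on the SED arrays. Of the EX arrays 3 lay above every PA and SED array, while EX 4 lay below all but SED 2, so the groups overlapped. The means were 7.61 ± 0.32 in EX, 7.48 ± 0.16 in PA and 7.36 ± 0.23 in SED (SD, n = 4 each). The EX minus SED difference was 0.25 ± 0.17 (SE), a 1.19-fold ratio with a 95% interval of 0.923 to 1.53 and an adjusted p of 0.496 by limma. PA minus SED was 0.11 ± 0.17 (limma, adjusted p = 0.766). EX minus PA was 0.14 ± 0.17 (limma, adjusted p = 1). Without SED 1, which was the highest of the SED arrays, EX minus SED was 0.33 and PA minus SED 0.19, neither of them called.

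Among the constitutive cytosolic members, Hspa4 belongs to the Hsp110 branch, whose members act as nucleotide exchange factors for Hsp70. It read 10.67, 10.65, 10.81 and 10.83 in EX, 10.77, 10.63, 10.65 and 10.77 in PA, and 9.77, 10.71, 10.52 and 10.67 in SED. SED 1 lay far under the other 11 arrays, which spanned 10.52 to 10.83. EX minus SED was 0.32 ± 0.18 (limma, adjusted p = 0.405) with all arrays and 0.11 without SED 1. PA minus SED was 0.29 ± 0.18 (limma, adjusted p = 0.442) with all arrays and 0.072 without SED 1. EX and PA averaged 10.74 ± 0.09 and 10.71 ± 0.08 (SD, n = 4 each), 0.035 apart.

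Hspa2 is an Hsp70 best known for its role in sperm formation and is also expressed in heart and skeletal muscle. The probe set 1394200_at read 9.59, 9.53, 9.51 and 9.51 in EX, 9.41, 9.34, 9.30 and 9.27 in PA, and 10.11, 9.56, 9.52 and 9.21 in SED. Every EX array lay above every PA array. SED arrays fell on both sides, with SED 1 the highest and SED 4 the lowest of all 12. EX averaged 9.54 ± 0.04, PA 9.33 ± 0.06 and SED 9.60 ± 0.37 (SD, n = 4 each). EX minus PA was 0.20 ± 0.15 (SE, 95% interval -0.13 to 0.54, limma adjusted p = 1). The standard error comes from a spread shared by all 3 groups, to which the wide SED group adds. EX minus SED was -0.065 ± 0.15 (limma, adjusted p = 0.862) with all arrays and 0.105 without SED 1, and PA minus SED was -0.27 ± 0.15 (limma, adjusted p = 0.408) with all arrays and -0.10 without it. The second Hspa2 probe set, 1369841_at, was under the filter and ranged from 3.34 to 3.57 in EX, 3.35 to 3.68 in PA and 3.35 to 3.67 in SED.

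Hsp90ab1 is the constitutive cytosolic Hsp90. Its probe set 1375336_at read 10.78, 10.98, 10.93 and 10.75 in EX, 10.82, 10.83, 10.88 and 10.71 in PA, and 10.76, 10.75, 10.78 and 10.61 in SED. The groups overlapped and no array stood apart. EX minus SED was 0.135 ± 0.087 (95% interval -0.05 to 0.32, limma adjusted p = 0.478) and PA minus SED was 0.085 ± 0.087 (limma, adjusted p = 0.646).

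The second Hsp90ab1 probe set, 1375335_at, gave larger differences. It read 10.66, 11.10, 10.97 and 10.84 in EX, 10.97, 10.80, 10.99 and 10.88 in PA, and 10.06, 10.64, 10.83 and 10.66 in SED. It was the member probe set with an unadjusted p under 0.05 in EX against SED, at 0.34 ± 0.16 (SE) with a p of 0.047 that became 0.314 after limma's adjustment. In PA against SED it differed by 0.36 ± 0.16, with an unadjusted p of 0.0384 and an adjusted p of 0.303 by limma. SED 1 lay 0.65 under the mean of the other SED arrays in this probe set and 0.047 above it in the first. Without SED 1 the probe sets came closer, at 0.18 and 0.15 in EX against SED and 0.20 and 0.10 in PA against SED.

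Hspa5, also called BiP, is the Hsp70 of the endoplasmic reticulum and the classic target of the unfolded protein response. It read 10.94, 10.99, 11.01 and 10.93 in EX, 11.13, 11.25, 11.06 and 11.10 in PA, and 11.10, 10.97, 10.99 and 11.18 in SED. All EX arrays were lower than all PA arrays, and the SED arrays spread over both. EX averaged 10.97 ± 0.04, PA 11.14 ± 0.08 and SED 11.06 ± 0.10 (SD, n = 4 each). EX minus PA was -0.17 ± 0.08 (SE), a 0.89-fold ratio, with a 95% interval of -0.35 to 0.012 on the log2 scale, an unadjusted p of 0.0646 and an adjusted p of 1 by limma. EX minus SED was -0.09 ± 0.08 (limma, adjusted p = 0.611) and PA minus SED 0.075 ± 0.082 (limma, adjusted p = 0.671). These were -0.08 and 0.09 without SED 1.

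Hspa5 and Hspa2 were the 2 of 11 chaperone probe sets whose EX and PA arrays did not overlap, Hspa5 lower and Hspa2 higher in EX. Over all tested probe sets 2.78% did not overlap between EX and PA, 1.33% with EX higher and 1.45% with EX lower. In EX against SED 0 of 11 did not overlap, where the share over all tested probe sets was 7.89%, and in PA against SED 1 of 11, where it was 8.39%, and 4.88% with PA the higher group.

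Hsp90b1, also called Grp94, is the Hsp90 of the same compartment and folds secreted and membrane proteins such as integrins. It read 10.18, 10.51, 10.37 and 10.16 in EX, 10.30, 10.43, 10.41 and 10.27 in PA, and 10.28, 10.29, 10.44 and 10.29 in SED. The EX arrays were both the highest and the lowest of the 12. EX minus SED was -0.020 ± 0.098 (95% interval -0.23 to 0.19, limma adjusted p = 0.940), PA minus SED was 0.028 ± 0.098 (limma, adjusted p = 0.914) and EX minus PA was -0.048 ± 0.098 (limma, adjusted p = 1). The differences from SED without SED 1 were -0.035 in EX and 0.0125 in PA. Hspa5 and Hsp90b1, whose promoters both hold the stress element printed above, had a Pearson's r across the 12 arrays of 0.248 (permutation p = 0.437) and a Spearman's rho of 0.274 (permutation p = 0.387). Without PA 2 and SED 4, the arrays farthest from the median of Hspa5, r was 0.161, and centred within the groups it was 0.164.

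Hspa9, or mortalin, is the mitochondrial Hsp70, which pulls precursor proteins through the inner membrane and folds them in the matrix. It had 4 tested probe sets. The brightest, 1388851_at, read 11.57, 11.74, 11.71 and 11.74 in EX, 11.72, 11.62, 11.72 and 11.69 in PA, and 11.23, 11.65, 11.64 and 11.72 in SED. EX and PA had nearly the same mean, at 11.69 ± 0.08 and 11.69 ± 0.05 (SD, n = 4 each), and SED 1 was the array that stood low. EX minus SED was 0.13 ± 0.11 (limma, adjusted p = 0.590) with all arrays and 0.020 without SED 1, and PA minus SED was 0.13 ± 0.11 (limma, adjusted p = 0.577) with all arrays and 0.0175 without SED 1.

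The other Hspa9 probe sets were also lowest in SED 1. The probe set 1370690_at ranged from 10.08 to 10.41 in EX, from 10.28 to 10.48 in PA and from 9.43 to 10.26 in SED, and every PA array lay above every SED array. Its PA minus SED difference was 0.36 ± 0.16 (limma, adjusted p = 0.329), and 0.17 without SED 1, still with no overlap. The probe set 1389930_at ranged from 7.87 to 8.10 in EX, from 7.89 to 8.40 in PA and from 6.46 to 7.96 in SED. It had the largest PA minus SED difference of the chaperone probe sets, 0.66 ± 0.27 (unadjusted p = 0.0309, limma adjusted p = 0.284), which was 0.33 without SED 1. The probe set 1391915_at ranged from 4.84 to 5.69 in EX, from 4.78 to 5.29 in PA and from 4.69 to 5.46 in SED, and its PA minus SED difference was 0.020 ± 0.20 (limma, adjusted p = 0.973), and -0.11 without SED 1. The EX minus SED differences of these 3 probe sets were 0.30, 0.52 and 0.27 with all arrays and 0.11, 0.19 and 0.14 without SED 1, none of them called. SED 1 lay under the mean of the other SED arrays by 0.44, 0.76, 1.33 and 0.53 in these 4 probe sets, in the order given.

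**Figure D2:**
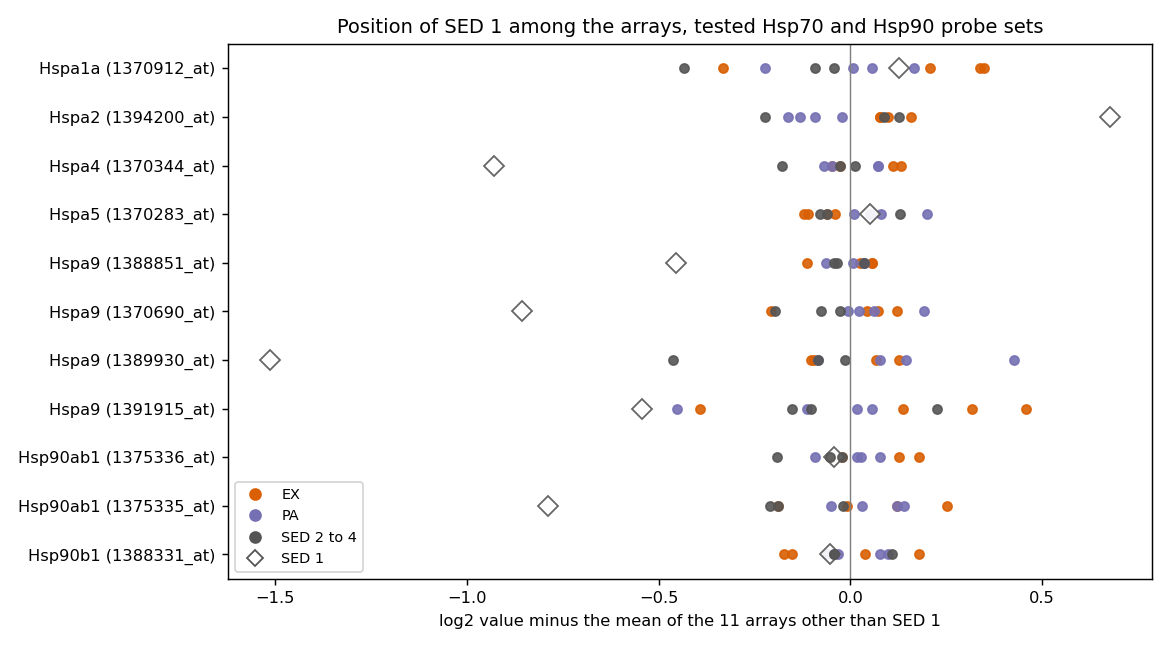
Log2 value of each array minus the mean of the 11 arrays other than SED 1 (x axis) for the 11 tested chaperone probe sets (y axis), with EX, PA and SED 2 to 4 as filled points and SED 1 as an open diamond. SED 1 is the lowest point in 6 rows, all 4 of Hspa9 among them, and the highest in Hspa2.

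Set side by side by compartment, the median difference of the 7 genes was 0.13 in EX against SED and 0.085 in PA against SED, beside 0.055 and 0.0625 over all tested probe sets. In EX against SED the higher means were those of Hspa1a, Hspa4, Hspa9 and Hsp90ab1, and the lower ones were those of Hspa2 and of both reticulum genes. In PA against SED 6 of the 7 genes had a higher mean and Hspa2 a lower one. Both comparisons share the SED arrays. Over all tested probe sets 59.8% had a higher mean in EX than in SED and 61% in PA than in SED, so most of the array leaned the same way. Without SED 1 the means of 9 of 11 probe sets were higher in EX than in SED and of 9 of 11 in PA than in SED, with none called, beside 56.9% and 60.3% over all tested probe sets. With all arrays these counts were 8 and 10 of 11. Of the 7 genes, 5 in EX and 6 in PA had a higher mean without SED 1. The share of all tested probe sets called without SED 1 was 0.0107% in EX against SED and 0% in PA against SED, and 11.5% did not overlap in each, against 0 and 1 of the 11 chaperone probe sets. The median differences of these 11 probe sets were then 0.11 and 0.09, beside 0.032 and 0.041 over all tested probe sets. With all arrays the medians of the 11 were 0.25 and 0.1125. The medians of the 7 genes were 0.105 and 0.072 without SED 1.

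**Figure D3:**
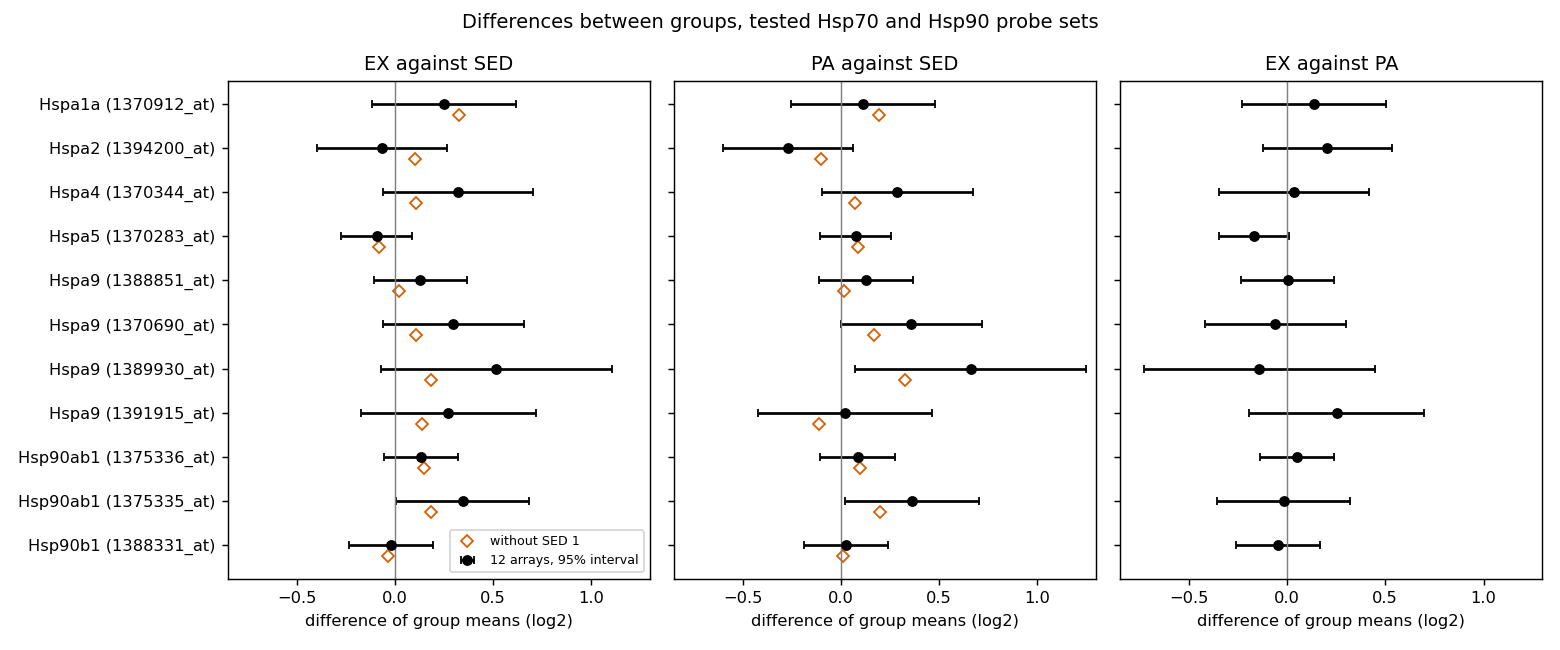
Difference of group means in log2 units (x axes) for the 11 tested chaperone probe sets (y axis) in EX against SED, PA against SED and EX against PA. Filled points and bars are the difference and 95% interval from 12 arrays, and open diamonds are the values without SED 1. The intervals of Hsp90ab1 1375335_at exclude 0 before adjustment in both comparisons with SED, and that of Hspa9 1389930_at does so in PA against SED.

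The partners of these chaperones were counted from lists of 138 genes, and no gene on them was called in any comparison by limma at an adjusted p under 0.05. Apart from the heat shock transcription factors, the genes named had the smallest p of their list in limma's F test over the groups. Gaps between groups are therefore expected among them. Over all tested probe sets 7.89% did not overlap in EX against SED and 8.39% in PA against SED. Of the other Hsp70 family genes, 7 of 9 listed were tested, and all 7 had higher means in EX and in PA than in SED, also without SED 1. Their medians were 0.245 in EX against SED and 0.17 in PA against SED, and 0.20 and 0.09 without SED 1. Set against its mean over all arrays, the list stood at -0.40 on SED 1 and -0.29 on SED 3. It stood at 0.0092 on SED 2, -0.021 on SED 4, 0.033 to 0.13 in EX and 0.059 to 0.13 in PA. Hspa12b read 4.67 on SED 3 and 6.02 to 6.30 on the other SED arrays, where EX averaged 5.91 and PA 5.985. The count of higher means was not taken without SED 3. Hspa14, an Hsp70 that works at the ribosome, read 8.46, 8.18, 8.24 and 8.33 in EX, 8.24, 8.41, 8.40 and 8.57 in PA, and 7.81, 8.12, 7.84 and 8.04 in SED. Neither activity group overlapped SED. In this list 2 of 7 genes did not overlap in EX against SED and 1 in PA against SED. Its differences were 0.35 ± 0.11 in EX (limma, adjusted p = 0.171) and 0.45 ± 0.11 in PA (limma, adjusted p = 0.165), and 0.30 and 0.40 without SED 1. Hspa12a, a distant relative of the family, differed by 0.34 ± 0.13 in EX against SED (limma, adjusted p = 0.241) and by 0.16 in PA against SED, and by 0.27 and 0.09 without SED 1. Trap1, the mitochondrial Hsp90, differed by -0.13 in EX and -0.08 in PA against SED, and by -0.20 and -0.15 without SED 1.

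The J-domain family includes partners of Hsp70, and not every member need deliver clients to it. Its 21 tested genes had a median of 0.098 in EX against SED, with 17 higher means and 4 lower ones. In PA against SED the median was 0.088, with 13 higher and 8 lower. Without SED 1 the medians were 0.15 and 0.11, with 17 higher means each. With all arrays 3 of 21 genes did not overlap in EX against SED and 2 in PA against SED. Dnajc14 read 7.45, 7.35, 7.42 and 7.39 in EX, 7.38, 7.40, 7.48 and 7.41 in PA, and 6.80, 6.79, 7.06 and 7.19 in SED. It lay above SED without overlap by 0.44 ± 0.10 in EX (limma, adjusted p = 0.134) and 0.46 ± 0.10 in PA (limma, adjusted p = 0.164), and by 0.39 and 0.40 without SED 1. Dnajc27 differed by 0.48 ± 0.13 in EX against SED (limma, adjusted p = 0.146) and by 0.41 without SED 1, and in PA against SED by 0.41 with all arrays and 0.33 without SED 1.

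Nucleotide exchange factors and other Hsp70 regulators did not lean one way, with 4 of 9 means higher and 5 lower in EX than in SED and 6 higher and 3 lower in PA than in SED. These counts were the same without SED 1. With all arrays 3 of 9 genes did not overlap in EX against SED and 1 in PA against SED. Hspbp1, which opens Hsp70 and releases its nucleotide, read 6.54, 6.71, 6.81 and 6.96 in EX, 6.89, 6.91, 6.93 and 6.90 in PA, and 7.26, 7.14, 7.17 and 7.06 in SED. Both activity groups lay under SED without overlap, by -0.40 ± 0.10 in EX (limma, adjusted p = 0.134) and -0.25 ± 0.10 in PA (limma, adjusted p = 0.267), and by -0.37 and -0.22 without SED 1. Bag5, a BAG domain exchange factor, had a difference of the other sign, 0.38 ± 0.13 in EX against SED (limma, adjusted p = 0.201), and 0.25 without SED 1. Its PA minus SED difference was 0.23 with all arrays and 0.099 without SED 1.

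The heat shock transcription factors had small differences. Hsf1, the main activator of the heat shock response, differed by -0.07 in EX (limma, adjusted p = 0.836) and 0.06 in PA (limma, adjusted p = 0.861) against SED. Hsf2 differed by 0.04 and 0.01, and Hsf4 by -0.20 and 0.03. When SED 1 was left out, the EX and PA differences from SED were -0.10 and 0.019 for Hsf1, 0.10 and 0.084 for Hsf2, and -0.21 and 0.026 for Hsf4. Hsbp1, a small protein that binds and restrains Hsf1, differed by 0.17 in EX and by 0.35 ± 0.12 in PA against SED (limma, adjusted p = 0.231), the second without overlap, and by 0.12 and 0.30 without SED 1.

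The 24 tested Hsp90 co-chaperones had medians of 0.049 in EX and 0.086 in PA against SED, with 14 and 16 higher means. With SED 1 left out, the medians were -0.0063 in EX, with 12 means higher and 12 lower, and 0.058 in PA, with 19 higher and 5 lower. Unc45a differed by -0.30 in EX and -0.34 in PA against SED (limma, adjusted p = 0.286 and 0.259), and by -0.35 and -0.40 without SED 1. Sugt1, an Hsp90 adaptor, had lower values in EX than in PA without overlap, by -0.23. Its differences from SED were 0.065 in EX and 0.29 in PA, and -0.030 and 0.195 without SED 1.

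In the endoplasmic reticulum, 12 of 25 means were higher and 13 lower in EX than in SED, with a median of -0.018, and 14 were higher and 11 lower in PA, with a median of 0.0025. Without SED 1 both medians were under 0, at -0.044 in EX, with 9 means higher and 16 lower, and -0.0042 in PA, with 11 higher and 14 lower. Erp29, a reticulum folding factor, read 8.22, 8.16, 8.14 and 8.11 in EX, 8.08, 8.19, 8.27 and 7.69 in PA, and 9.22, 8.44, 8.43 and 8.33 in SED. All SED arrays were above all EX and PA arrays. Of the 25 genes 3 did not overlap in EX against SED and 1 in PA against SED. The differences were -0.45 ± 0.19 in EX (limma, adjusted p = 0.274) and -0.55 ± 0.19 in PA (limma, adjusted p = 0.229), and -0.24 and -0.34 without SED 1, its highest array. Dnajb9, a J-domain partner of Hspa5, differed by -0.20 ± 0.09 in EX against SED (limma, adjusted p = 0.286) and by -0.07 in PA, and by -0.18 and -0.041 without SED 1. Of 11 tested regulators of the unfolded protein response 7 had higher means in EX than in SED, with a median of 0.025, and 6 had higher means in PA than in SED, with a median of 0.04. When SED 1 was left out, the EX count turned round, to 4 higher and 7 lower with a median of -0.0325, and PA had 6 higher with a median of 0.0125. Eif2ak3, the sensor kinase PERK, differed by 0.31 ± 0.11 in EX against SED (limma, adjusted p = 0.210) and by 0.15 in PA, and by 0.33 and 0.17 without SED 1. Edem1, which sends misfolded proteins to degradation, differed by -0.21 ± 0.11 in PA against SED (limma, adjusted p = 0.384), by 0.235 ± 0.11 in EX against PA (unadjusted p = 0.0554, limma adjusted p = 1) and by 0.025 ± 0.11 in EX against SED. Without SED 1 its differences from SED were 0.034 in EX and -0.20 in PA.

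Mitochondrial chaperones and import factors had medians of 0.04 in EX and 0.07 in PA against SED over 17 genes, and -0.016 and -0.014 without SED 1. With all arrays 3 of the 17 did not overlap in EX against SED and 1 in PA against SED. Clpb, a disaggregase of the mitochondria, read 8.21, 8.22, 8.19 and 8.50 in EX, 8.49, 8.23, 8.16 and 8.20 in PA, and 7.06, 7.75, 7.66 and 7.99 in SED. It was above SED without overlap by 0.67 ± 0.17 in EX (limma, adjusted p = 0.136) and 0.66 ± 0.17 in PA (limma, adjusted p = 0.178), and by 0.48 and 0.47 without SED 1. Timm44, which tethers Hspa9 to the import channel, was lower in EX than in SED without overlap, by -0.30 ± 0.09 (limma, adjusted p = 0.161), and by -0.30 without SED 1. Its PA minus SED difference was -0.16 with and without SED 1. Among the small heat shock proteins 6 of 7 means were lower in EX than in SED, with a median of -0.0325, while 5 of 7 were higher in PA than in SED, with a median of 0.0775. Hspb3 differed by -0.15 in EX and 0.135 in PA against SED, and Hspb1, also called Hsp27, by -0.13 and 0.0925. Without SED 1 the list had 5 of 7 lower in EX, with a median of -0.049, and 5 of 7 higher in PA, with a median of 0.016. Hspb3 was then at -0.16 and 0.12, and Hspb1 at -0.21 and 0.016. The 8 genes of the cytosolic chaperonin had a median of 0.11 in EX against SED that was -0.020 without SED 1, and of 0.14 in PA against SED that was 0.0525 without SED 1. In EX against SED its subunits Cct7 and Cct5 differed by -0.21 and 0.17, and by -0.28 and 0.19 without SED 1. In PA against SED they differed by -0.030 and 0.12, and by -0.10 and 0.14 without SED 1.

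**Figure D4:**
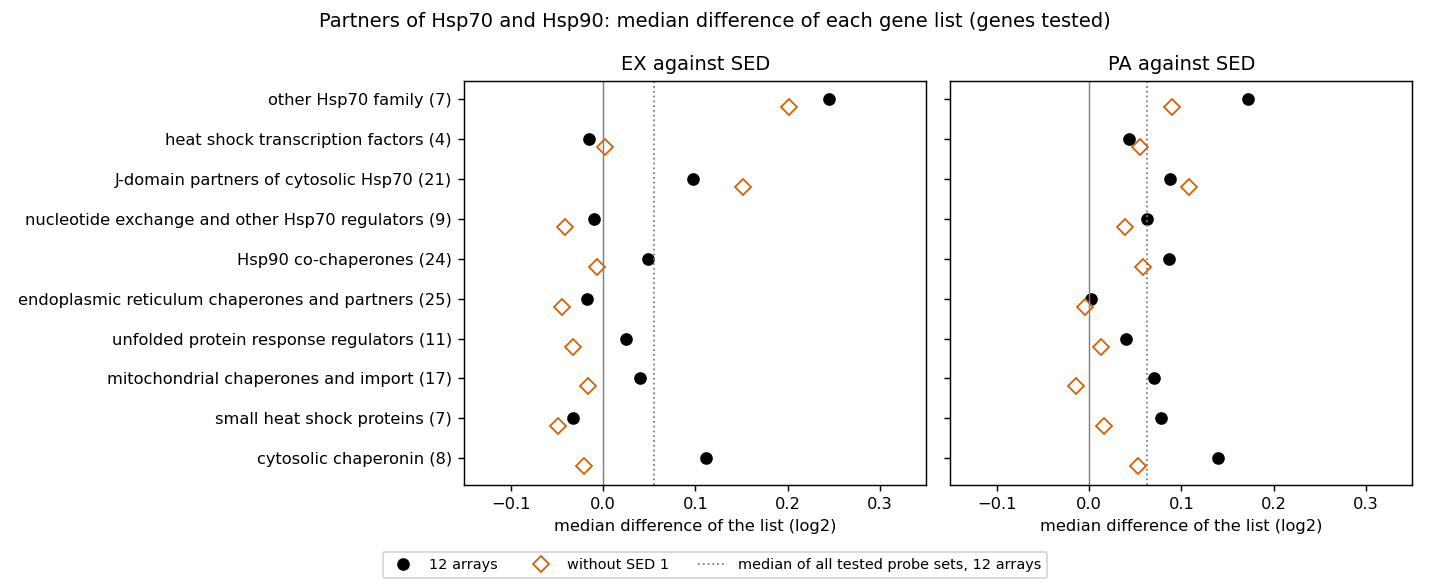
Median difference of each partner list in log2 units (x axes) in EX against SED and PA against SED, with the number of genes tested in parentheses (y axis). Filled points are from 12 arrays, open diamonds leave out SED 1, and the dotted line is the median of all tested probe sets (0.055 and 0.0625). The other Hsp70 family lies farthest right in EX against SED, and the chaperonin lies under 0 there without SED 1.

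Of 8 pairs of genes chosen for a comparison across arrays, 4 could be run, since the others needed Hspa8 or Hsp90aa1. Hspa1a was set against Dnajb1, its inducible J-domain partner. Dnajb1 read 9.58, 10, 9.46 and 9.21 in EX, 9.15, 9.25, 9.60 and 9.62 in PA, and 9.93, 9.19, 9.45 and 9.25 in SED. The arrays high in one gene tended to be high in the other. Pearson's r was 0.706 over 12 arrays (permutation p = 0.0104, and 0.0415 after Benjamini-Hochberg adjustment over the 4 pairs) and Spearman's rho was 0.746 (permutation p = 0.00678, adjusted 0.0271). It was 0.722 with the values centred within groups and 0.740 without SED 1. Without EX 4 and SED 2, the arrays farthest from the median of Hspa1a, r was 0.624 (permutation p = 0.0559). Those arrays were the lowest in Hspa1a, and leaving them out narrows its range. The lower r therefore cannot show how far the relation rests on them. Leaving out each array in turn gave r of 0.623 to 0.796, with adjusted permutation p of 0.0135 to 0.165. That p was over 0.05 in 8 of the 12 cases, those without EX 2, EX 4, PA 1, PA 3, PA 4, SED 2, SED 3 or SED 4. Averaging the tested probe sets of each gene, which brings in a second Dnajb1 probe set, gave 0.425 (adjusted permutation p = 0.656). Hspa5 with Hspa9 gave r of -0.120 (permutation p = 0.751) and Hspa1a with Hspa5 gave 0.085 (permutation p = 0.793).

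**Figure D5:**
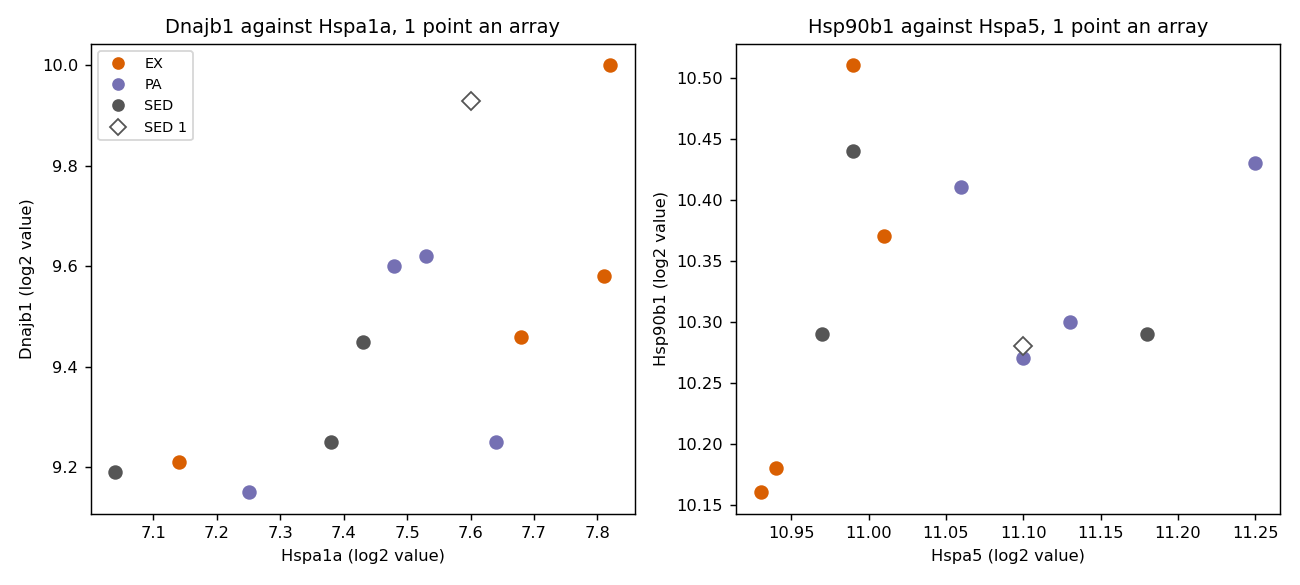
Log2 values of Dnajb1 against Hspa1a (left) and of Hsp90b1 against Hspa5 (right), 1 point an array, with SED 1 as an open diamond. The left panel has r of 0.706 over 12 arrays, with SED 2 and EX 4 at its low end, and the right panel has r of 0.248.

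Among 10244 genes, the 5 whose values over the 12 arrays were most like those of Hspa1a were Cc2d1b (r of 0.905), Nsun2 (0.876), Maco1 (0.853), Pard6g (0.833) and Zkscan5 (0.831). Those most like Hspa5 were Trappc5 (0.862), Msrb1 (0.846), Mlycd (0.830), Sf3a2 (0.828) and Impa2 (0.819). These are the highest of many correlations over the same 12 arrays and describe those arrays only. None of the other chaperone genes was among them.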

How the data were processed

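RNA was measured on Affymetrix whole-genome rat arrays, 4 for each of 3 groups. The deposited values are log2 signals, for which MAS5 and RMA are both named in the submitters' processing notes, with no role given. Their distribution was left as deposited. Of 31099 rows, 57 control rows were set aside, leaving 31042 probe sets. Annotation gave 20826 of them 1 symbol, 436 several and 9780 none. With limma 3.58.1 (R 4.3.3), 3 group means were fitted to all 12 arrays (9 residual degrees of freedom) for the 18626 probe sets in the upper 60% by mean (at least 4.94), with Benjamini-Hochberg adjustment and a threshold of 0.05. Where a gene had several tested probe sets, the brightest over all arrays stands for it. The number of arrays limits the precision. The fit was tested on simulated data.

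Correlations used 100000 two-sided permutations (numpy 2.4.6), and figures matplotlib 3.10.9. The chaperone genes and the gene lists were chosen with earlier results of these data known. Named genes are all chaperone genes measured, all heat shock transcription factors tested, the 2 genes of each other list with the smallest F test p, and the 5 genes most like Hspa1a and Hspa5. The rule allowed 3 genes a list, and 2 were named after the values were seen. Alternatives covered normalization, filter, offset, array weights, the replicate block, threshold, probe set summary and each array left out; those for the correlations were chosen after seeing the data. Background correction could not be repeated on processed values, and an offset of 32 was used in its place. RefSeq promoters matched 8 of the 9 genes by symbol.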

Additional observations from a re-analysis of the deposited data

Results flagged for a closer look

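In 36 groups of 4 chaperone values (12 probe sets in 3 groups), 2 held an array far from the other 3 by Dixon's 95% criterion for the gap over the range. Chance alone gives about 1 in 20 such groups. For Hspa9 (1388851_at), SED 1 read 11.23, under the nearest SED array at 11.64, a gap of 0.837 of the range, and SED 1 was also lowest in the other 3 tested Hspa9 probe sets. For Hsp90b1 (1388331_at), SED 3 read 10.44, above the nearest SED array at 10.29, a gap of 0.938 of a range in which the other 3 arrays lay between 10.28 and 10.29. SED 3 was also the array in which the leukocyte and blood marker lists stood highest, by 0.68 and 1.04 log2 units over the mean of the arrays, and their part in the Hsp90b1 value was not tested.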

How the results depend on the processing

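The count of chaperone probe sets called was 0 under every alternative run, array omissions included, and the lowest adjusted limma p of any chaperone difference was 0.184 (Hsp90ab1 1375335_at, EX against SED, without SED 3). Over all tested probe sets, calls in EX against SED went to 8 with array weights, 4 at a threshold of 0.1, 2 with probe sets averaged by gene and 0 to 2 with an array left out; array weights gave 1 call in PA against SED and 1 in EX against PA. With the replicate number as a block, all 33 tested chaperone differences kept their direction and 0 were called, as were 0 of all tested probe sets (lowest adjusted limma p of a chaperone 0.293). Same-numbered arrays correlated from -0.208 to 0.134 in their deviations from group means, others from -0.214 to 0.224. Of these correlations 4 of 12 and 10 of 36 were over 0.1. These overlapping ranges show no pairing by number, and a batch shared by number was not tested.

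Differences that were never called changed sign as follows, and the cause was not tested. In EX against SED, quantile normalization gave Sugt1 -0.0021 and Edem1 -0.080, cyclic loess gave Hsf2 -0.0075, Sugt1 -0.016 and Edem1 -0.082, and array weights gave Hspa2 0.050 and Edem1 -0.0087. In PA against SED, quantile normalization gave Hsp90b1 -0.019, Hsf1 -0.0015 and Hsf2 -0.032, cyclic loess gave Hsp90b1 -0.045 and Hsf2 -0.042, array weights gave Hspa9 1391915_at -0.124 and Hsf4 -0.029, and averaged probe sets gave Edem1 0.076. In EX against PA, centred medians gave Hspa9 -0.0075. With an array left out, EX against SED ran from -0.195 to 0.105 for Hspa2, -0.088 to 0.028 for Hsp90b1, -0.0425 to 0.1075 for Edem1, -0.14 to 0.0058 for Hsf1 and -0.030 to 0.147 for Sugt1. PA against SED ran from -0.11 to 0.14 for Hspa9 1391915_at, -0.10 to 0.062 for Cct7, -0.021 to 0.12 for Hsf1, -0.016 to 0.084 for Hsf2 and -0.0375 to 0.16 for Hsf4. EX against PA ran from -0.116 to 0.00083 for Hsp90b1, -0.087 to 0.060 for Hsp90ab1 1375335_at, -0.098 to 0.012 for Hspa9 1370690_at and -0.020 to 0.0425 for Hspa9. Correlations ran from -0.103 to 0.275 for Hspa1a with Hspa5, -0.205 to 0.038 for Hspa5 with Hspa9 and 0.623 to 0.796 for Hspa1a with Dnajb1, which averaged probe sets lowered to 0.425. The 4 arrays a group limit what can be seen.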
